A study of Homo sapiens with 6 samples.

Results

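The genes that build the nuclear pore, carry cargo through it and line the inner face of the nuclear envelope were followed in ARPE-19 cells with and without knockdown of EIF1. Members were the protein-coding genes whose symbols name a numbered nucleoporin (NUP), an importin or karyopherin (KPNA, KPNB, IPO, TNPO), an exportin (XPO), a Ran-binding protein (RANBP), a regulator of the Ran cycle (RAN, RANGAP1, RCC1) or a protein of the lamina (LMNA, LMNB1, LMNB2, LBR, TMPO, EMD). The rule used names and no measured value, although it was chosen with earlier results of these data known. It selected 64 of the 30618 genes in the count table. The ARPE-19 line is a standard human cell line derived from the pigment epithelium of the retina. All 6 libraries came from cells kept in 50 mM glucose, with no normal-glucose group among them. The NC group (n = 3) received a non-targeting control siRNA and the siEIF1 group (n = 3) received an siRNA against EIF1, which encodes a translation initiation factor that takes part in the choice of the start codon. The methods print a single siEIF1 sequence, while the labels of the raw blots list a further siEIF1 series. The sources do not say which series was sequenced. The libraries form a single siEIF1 group, so the effect of the siRNA and the effect of lower EIF1 cannot be told apart. The question of the comparison was which transcripts change when EIF1 is reduced under high glucose.

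As background, nuclear pore complexes are the channels through the nuclear envelope. Scaffold nucleoporins form their rings, and nucleoporins with phenylalanine-glycine (FG) repeats fill the channel that transport receptors cross. Importins release cargo in the nucleus and exportins bind cargo there because the small GTPase Ran is kept in its GTP form inside the nucleus by RCC1 and is switched to its GDP form in the cytoplasm by RANGAP1. The lamina under the inner nuclear membrane is a mesh of A-type and B-type lamins held to the membrane by proteins such as LBR, the LAP2 products of TMPO and emerin. Pores and lamina are taken apart when the cell enters mitosis and are rebuilt around the daughter nuclei.

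Abundance is given as counts and as FPKM. Counts are uniquely mapped reads per gene, and FPKM scales the fragments of a gene to a length and to the mapped fragments of the library. Set beside the counts, the deposited FPKM of the members used a length in proportion to all annotated exon bases of a gene, not to 1 transcript. Levels and family shares compared between genes therefore depend on how many exon bases are annotated, while the same gene can be compared between libraries. The log2 fold change compares siEIF1 with NC on the counts and is negative where siEIF1 was lower. A gene was called higher or lower at an adjusted p under 0.05. Unless another tool is named, each adjusted p is from the quasi-likelihood test of edgeR, with Benjamini-Hochberg adjustment over the 16749 genes tested. The libraries held from 26499929 to 31431479 counts. EIF1 itself had FPKM of 294.4, 281.1 and 281.3 in NC replicates 1 to 3 and of 24.3, 22.7 and 23.5 in siEIF1 replicates 1 to 3 (log2 fold change -3.58, SE 0.055, adjusted p = 1.08e-13). The groups were thus far apart for the targeted gene. Of 13 markers of retinal pigment epithelium, 12 were matched, and RPE65 was not. The summed FPKM of the 12 was 526 to 545 in NC and 570.0 to 615 in siEIF1, with KRT8, KRT18 and RLBP1 called higher. Several were low, with TYR and DCT at or below 0.1 in every library, TYRP1 at 0.12 or below and PMEL at 0.20 to 0.32. RLBP1 was low as well, at 0.17 to 0.27 in NC and 0.62 to 0.73 in siEIF1, while OTX2 was at 17.5 to 19.2 over all libraries. KRT8 and KRT18 supplied most of the marker sum. BEST1 went the other way without being called, at 70.8, 66.6 and 60.5 in NC and 62.1, 55.0 and 38.8 in siEIF1 (log2 fold change -0.32, adjusted p = 0.106). Endothelial markers summed to 0.31 at most and markers of the neural retina to 0.38, and PECAM1, CDH5 and VWF were at or below 0.1 throughout. Of the immune markers, CD68 was at 0.83 to 0.97, with the groups overlapping, and CD3E and CD14 were at or below 0.1 throughout. The part of these marker differences in the results below was not tested.

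Of the 64 members, 61 had enough counts to be tested. NUP210L, KPNA7 and RANBP3L did not, with mean counts of 0.33, 1 and 0.17 per library. In the siEIF1 group 25 of the 61 tested members (41.0%) were called lower, beside 10.4% of all tested genes. Called higher were 2 members (3.28%), LMNA and KPNA5, beside 10.2% of all tested genes. In either direction the calls covered 20.6% of all tested genes. Most members shifted in the same direction, since 47 of the 61 had a negative log2 fold change. The median log2 fold change of the tested members was -0.10, while that of all tested genes was 0.0033, with quartiles of -0.14 and 0.15.

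The falls were modest in size. Fitted falls of the 25 lower members ran from 11.4% to 49.0%, with a median of 20.4%. No member passed, by edgeR or DESeq2, the stricter limits, which ask in addition for a fold change of more than 2 or less than 0.5 and which 0.400% of all tested genes passed as higher and 1.31% as lower. With NC replicate 2 left out, 1 member (LMNB1) passed them. Scaled counts did not overlap between the groups in 36 of the 61 members (59.0%), beside 37.1% of all tested genes, and all 25 lower members and both higher members were among them. Of the members, TMPO, RANGAP1 and LBR also stand in a published list of genes of the G2/M phase of the cell cycle, and none stands in the S phase list of the same source. Without these 3, which were set aside after the values were seen, 22 of 58 members (37.9%) were lower and the median stayed at -0.10. Absence from these lists does not show that a gene is independent of the cell cycle, so this count does not separate members by such dependence. In RNA from whole cultures, fewer cells in a given state and less of a transcript per cell cannot be told apart.

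**Figure D1:**
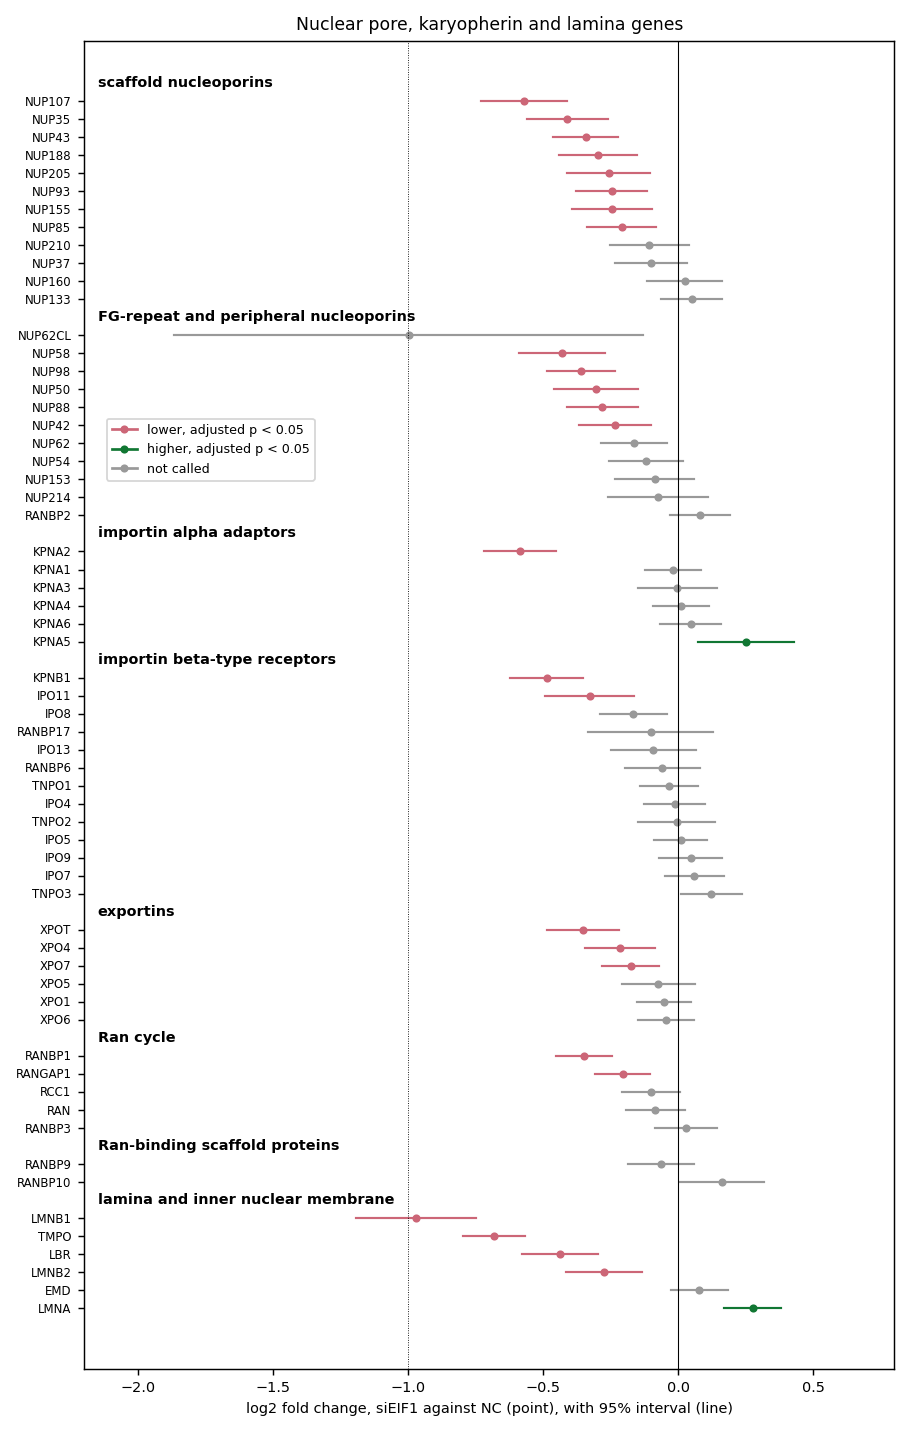
Log2 fold change (siEIF1 against NC, horizontal axis) of the 61 tested members with the 95% interval as a line, grouped by role, with the dotted line at -1.0. The 25 lower members spread over 7 of the 8 roles, KPNA2, KPNB1 and IPO11 are the lower importins, and LMNA lies on the opposite side of 0 from LMNB1 and LMNB2.

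The lamina held the largest falls among the called members, and its members went in opposite directions. Of 6 members, LMNB1, LMNB2, LBR and TMPO were lower, LMNA was higher, and EMD was not called. The median log2 fold change of the 6 was -0.36.

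LMNB1 (ENSG00000113368.12), which encodes lamin B1, spans 126776623 to 126837020 of chromosome 5 (GRCh38, forward strand). Its FPKM was 2.27, 1.97 and 2.26 in NC replicates 1 to 3 and 1.10, 1.05 and 1.10 in siEIF1 replicates 1 to 3. The lowest NC library was thus well above the highest siEIF1 library, and the siEIF1 libraries were close to each other. Mean FPKM was 2.17 ± 0.17 (SD, n = 3) in NC and 1.08 ± 0.029 (SD, n = 3) in siEIF1. On the counts this was a log2 fold change of -0.97 (SE 0.103, adjusted p = 2.71e-05), the largest fall of any called member. TMPO (ENSG00000120802.14; chromosome 12, 98515579 to 98550351, forward strand), which encodes the LAP2 proteins that bind lamins and chromatin, had the smallest p of all members. Its FPKM was 5.50, 5.32 and 5.26 in NC and 3.38, 3.14 and 3.36 in siEIF1. The groups lay far apart beside a narrow spread within each, and the log2 fold change was -0.68 (SE 0.053, adjusted p = 1.95e-06).

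LBR, the lamin B receptor of the inner nuclear membrane, had FPKM of 3.88, 3.61 and 3.72 in NC and of 2.82, 2.54 and 2.80 in siEIF1 (log2 fold change -0.44, SE 0.065, adjusted p = 3.99e-04). The second B-type lamin gene, LMNB2, had FPKM of 7.10, 6.37 and 6.76 in NC and of 5.20, 5.21 and 6.09 in siEIF1 (log2 fold change -0.28, SE 0.066, adjusted p = 0.00954). For LMNB2 the groups came close, since siEIF1 replicate 3 lay just under NC replicate 2. The call of LMNB2 was lost with limma on log2(FPKM + 1) without a filter on low values (adjusted p = 0.106). LMNA, the gene of lamins A and C, was by far the most abundant lamin. Its FPKM was 42.9, 46.0 and 44.7 in NC and 53.1, 51.3 and 55.2 in siEIF1 (log2 fold change 0.28, SE 0.049, adjusted p = 0.00142). All siEIF1 libraries were above all NC libraries. EMD, which encodes emerin, overlapped between the groups at 30.2, 32.3 and 31.4 in NC and 33.2, 31.9 and 32.5 in siEIF1, with a 95% interval of the log2 fold change from -0.028 to 0.18.

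**Figure D2:**
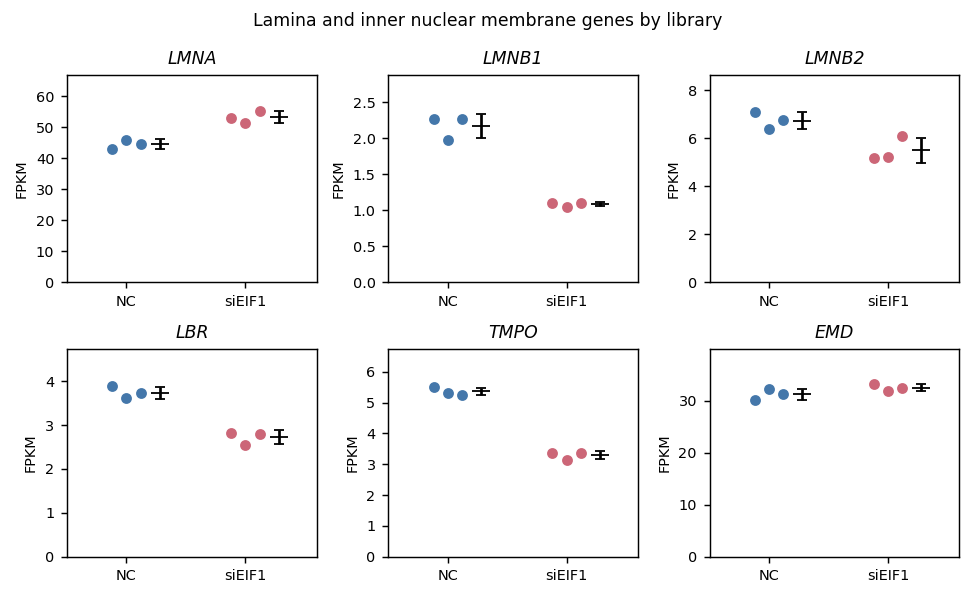
FPKM (vertical axes, from 0) of the 6 lamina and inner nuclear membrane genes in each NC (blue) and siEIF1 (red) library, with the mean and SD of each group as black bars. LMNB1, LMNB2, LBR and TMPO sit lower in siEIF1, LMNA sits higher, and the EMD groups overlap.

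The makeup of the lamin transcripts moved with these changes. LMNB1 made up 4.06% ± 0.38 (SD, n = 3) of the summed lamin FPKM in NC and 1.81% ± 0.046 (SD, n = 3) in siEIF1, a difference of -2.24 percentage points. As a share of the lamin counts, which are not scaled to length, the difference was -1.09 points. LMNB2 went from 12.6% to 9.19% and LMNA from 83.3% to 89.0%. Each of the 3 shares was separated between the groups (exact permutation test, two-sided, p = 0.1, the lowest that this design of 3 against 3 can give). The 3 shares add up to the whole, so these are linked and not 3 separate results. As a sum over all 6 lamina genes, FPKM was 93.8 ± 1.89 (SD, n = 3) in NC and 98.3 ± 2.98 (SD, n = 3) in siEIF1, and here the groups overlapped (exact permutation p = 0.2). LMNA and EMD supplied most of that sum.

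The sequences before the start sites of some members are shown because some lower members of different roles held the same short letter strings there, while other lower members did not. They come from the RefSeq windows of GRCh38.p14, in which 57 of the 64 members had an entry and 21 of these 57 were lower members. XPO7, KPNA5, KPNA4, NUP43, KPNA7, RANBP1 and KPNB1 had no entry. Within the 250 bases before the start, TTTGAA or TTTAAA was searched on both strands, as was CCAAT. The string TTTAAA reads the same on both strands. The first 2 strings are forms of the cell cycle genes homology region (CHR) known from promoters of mitotic genes, and CCAAT is the letter string bound by NF-Y. The stretches are printed in the direction of transcription, with any of these strings in capitals on either strand. TMPO (chr12:98515340-98515578, forward strand), RANGAP1 (chr22:41286188-41286437, reverse strand) and NUP205 (chr7:135557667-135557916, forward strand) each hold a TTTGAA or TTTAAA string, and XPOT (chr12:64404142-64404391, forward strand) is a lower member with none of the strings searched.
TMPO: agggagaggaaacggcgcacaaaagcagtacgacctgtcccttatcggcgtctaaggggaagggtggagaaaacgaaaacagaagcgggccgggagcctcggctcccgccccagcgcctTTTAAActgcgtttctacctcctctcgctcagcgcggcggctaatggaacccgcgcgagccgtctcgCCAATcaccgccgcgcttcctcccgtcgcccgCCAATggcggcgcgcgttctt
RANGAP1: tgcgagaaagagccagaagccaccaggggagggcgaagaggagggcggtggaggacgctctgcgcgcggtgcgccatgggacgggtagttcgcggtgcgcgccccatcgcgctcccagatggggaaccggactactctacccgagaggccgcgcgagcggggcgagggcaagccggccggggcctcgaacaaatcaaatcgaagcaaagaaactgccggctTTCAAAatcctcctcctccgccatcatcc
NUP205: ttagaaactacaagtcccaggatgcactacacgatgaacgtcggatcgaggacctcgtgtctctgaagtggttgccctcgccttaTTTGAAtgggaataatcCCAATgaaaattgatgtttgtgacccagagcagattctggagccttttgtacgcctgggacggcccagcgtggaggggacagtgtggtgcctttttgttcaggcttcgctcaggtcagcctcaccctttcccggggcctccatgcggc
XPOT: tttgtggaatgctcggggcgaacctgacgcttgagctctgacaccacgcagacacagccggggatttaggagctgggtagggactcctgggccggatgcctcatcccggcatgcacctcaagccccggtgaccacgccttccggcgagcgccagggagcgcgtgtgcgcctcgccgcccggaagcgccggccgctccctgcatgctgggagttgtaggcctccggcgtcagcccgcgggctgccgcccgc

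In LMNB1, KPNA2 and NUP35 the string lies within an exon of another annotated transcript, so 30 bases around it are shown. The string of NUP98 also lies within an exon, and its stretch is not printed. Of the 250 window bases, 250 in LMNB1 and 238 in NUP98 lie in annotated exons of the gene itself. The stretches shown are at chr5:126776933-126776962, chr17:68035693-68035722 and chr2:183124396-183124425, all on the forward strand.
LMNB1: caagggccagatTTTAAAtttacaggcccg
KPNA2: gtcaccgggaaaTTTAAAtcgcgccggccg
NUP35: gtttccgccattTTTGAAaattaATTGGga

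Either TTTGAA or TTTAAA was present in 11 of the 21 lower members with a window (52.4%), in 4 of 33 members that were not called (12.1%) and in 15.6% of the 16332 windows of tested genes, where a gene can have more than 1 window. Over all 35116 windows the share was 21.9%. The 11 lower members were LMNB1, LMNB2, LBR, TMPO, KPNA2, IPO11, RANGAP1, NUP35, NUP58, NUP98 and NUP205, so 4 of the 11 were lamina genes. The nearest of these strings began 29, 30 and 35 bases before the start in RANGAP1, KPNA2 and NUP35. In IPO11, NUP98, TMPO, NUP205, LMNB1, NUP58 and LMNB2 it began farther away, at 108 to 246 bases. For LBR the start of the window lies 783 bases from the start of the canonical transcript, so its match is not next to that start either. Among the 4 members not called that held either string, it began 30 bases before the start in RCC1 and 66 in NUP37. In IPO7 and NUP153 it began at 182 and 241 bases. A string near the start was thus found in members of both kinds. CCAAT was present in 11 of the 21 lower members (52.4%), in 13 of the 33 members not called (39.4%) and in 32.5% of the windows of tested genes. These are letter matches and not measured binding sites, and the shares were not tested.

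Among the scaffold nucleoporins, 8 of 12 tested members were lower and none was higher, with a median log2 fold change of -0.25. All 5 members of the inner ring were lower. This group comprises NUP93, which anchors the ring, the large subunits NUP188 and NUP205, the linker NUP155, and NUP35, which touches the membrane. NUP35 had the largest fall of the 5, with FPKM of 3.68, 3.71 and 3.75 in NC and of 2.80, 2.59 and 2.87 in siEIF1 (log2 fold change -0.41, SE 0.069, adjusted p = 9.65e-04). The NC libraries were nearly equal and all lay above the siEIF1 libraries. The log2 fold changes of NUP188, NUP205, NUP93 and NUP155 lay between -0.30 and -0.24, with adjusted p from 0.00649 to 0.0221. The calls of NUP205 and NUP155 were lost when NC replicate 1 or 3 or siEIF1 replicate 2 was left out (adjusted p = 0.0702 to 0.108), and NUP93, NUP155 and NUP205 were not called by limma on log2(FPKM + 1) (adjusted p = 0.0688 to 0.0934).

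The Y complex, the scaffold of the outer rings, moved unevenly. NUP107 (ENSG00000111581.10; chromosome 12, 68686951 to 68745809, forward strand) had FPKM of 3.84, 3.54 and 3.39 in NC and of 2.29, 2.22 and 2.66 in siEIF1, with no overlap (log2 fold change -0.57, SE 0.074, adjusted p = 1.36e-04). NUP43 was at 9.94, 9.27 and 9.90 in NC and at 7.46, 7.11 and 8.07 in siEIF1 (log2 fold change -0.34, SE 0.055, adjusted p = 7.25e-04). NUP85 was lower by the main test (log2 fold change -0.21, adjusted p = 0.0229) but not by DESeq2 (adjusted p = 0.0546) or without NC replicate 1 or 3 or siEIF1 replicate 1 or 2 (0.0615 to 0.0795). NUP133, the partner that NUP107 binds in the stem of the complex, was at 5.36, 5.26 and 5.28 in NC and at 5.48, 5.24 and 5.51 in siEIF1, with a 95% interval of the log2 fold change from -0.064 to 0.16. The interval of NUP107 ran from -0.73 to -0.41 and so did not meet that of NUP133, although the difference between these genes was not tested. NUP160 and NUP37 were not called either, at log2 fold changes of 0.024 and -0.10. NUP210, a membrane-spanning pore protein, was also not called (log2 fold change -0.11, adjusted p = 0.301).

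Of the 11 FG-repeat and peripheral nucleoporins, 5 were lower and none was higher, with a median of -0.24. NUP58, NUP54 and NUP62 form the central channel together. NUP58 was at 4.04, 3.63 and 3.65 in NC and at 2.68, 2.48 and 3.13 in siEIF1 (log2 fold change -0.43, SE 0.073, adjusted p = 0.00111), with every siEIF1 library under every NC library. NUP54 and NUP62 had log2 fold changes of -0.12 and -0.16 and adjusted p of 0.220 and 0.0568, so neither was called. NUP98, a mobile FG nucleoporin that also binds chromatin, was at 5.48, 5.14 and 5.42 in NC and at 3.87, 3.95 and 4.51 in siEIF1 (log2 fold change -0.36, SE 0.058, adjusted p = 7.22e-04). Its groups did not overlap, and siEIF1 replicate 3 was the one nearest to NC. NUP50, which helps importin alpha release cargo, NUP88 of the cytoplasmic side and NUP42, which takes part in mRNA export, had log2 fold changes of -0.30, -0.28 and -0.24. The call of NUP42 was lost without NC replicate 3 (adjusted p = 0.0824), and that of NUP50 with limma on log2(FPKM + 1) (adjusted p = 0.0508). Without a filter on low values, limma did not call NUP42, NUP50, NUP58 or NUP88 (adjusted p = 0.0642 to 0.121). NUP153 of the nuclear basket, NUP214 and RANBP2 of the cytoplasmic filaments were not called, with log2 fold changes of -0.087, -0.076 and 0.079. NUP62CL had the lowest fitted value of all members, -0.999, but it rested on a mean count of 13.3 and was not called (95% interval -1.87 to -0.13, adjusted p = 0.101).

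Over both classes of nucleoporin, 13 of 23 tested members (56.5%) were lower, 0 were higher by edgeR, by DESeq2 or at an unadjusted p under 0.05, and 20 had a negative log2 fold change. The summed FPKM of the scaffold class was 58.9, 56.6 and 58.8 in NC and 48.4, 47.8 and 52.9 in siEIF1, and that of the FG and peripheral class was 53.9, 50.6 and 52.8 in NC and 44.4, 42.9 and 48.3 in siEIF1. In both sums the groups were separate and siEIF1 replicate 3 lay nearest to NC (exact permutation test, two-sided, p = 0.1 each, the lowest possible). The siEIF1 sums were 85.5% and 86.2% of the NC sums.

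**Figure D3:**
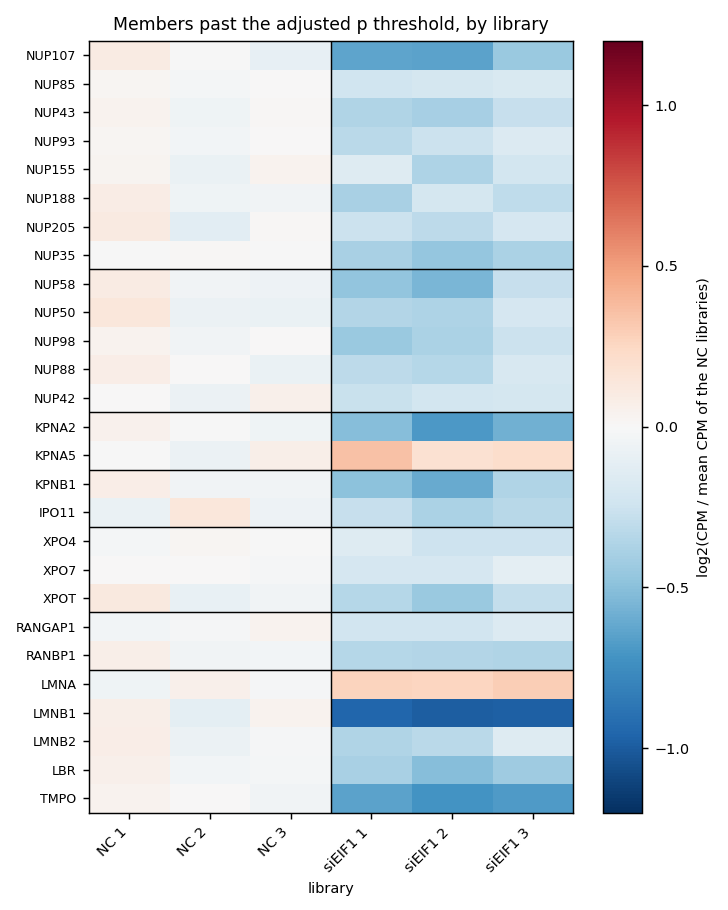
Log2 of the library-scaled count in each of the 6 libraries relative to the NC mean, for the 25 lower and 2 higher members, with black lines between roles. Blue is lower and red is higher, LMNB1 is the darkest row, LMNA and KPNA5 are the rows in red, and siEIF1 replicate 3 is paler than replicates 1 and 2 for most nucleoporins.

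The importin alpha proteins are adaptors that read the classical nuclear localization signal and tie the cargo to importin beta. Of 6 tested members, KPNA2 was lower and KPNA5 was higher, and the median log2 fold change was 0.0038. KPNA2 (ENSG00000182481.10; chromosome 17, 68035636 to 68047364, forward strand) had FPKM of 5.43, 5.19 and 5.14 in NC and of 3.65, 3.15 and 3.56 in siEIF1 (log2 fold change -0.59, SE 0.061, adjusted p = 2.34e-05). The groups were widely separated. KPNA1, KPNA3, KPNA4 and KPNA6 were at log2 fold changes from -0.021 to 0.046, and the 95% intervals of all 4 stayed inside a 1.25-fold change. KPNA5, the least abundant of the 6, was at 0.85, 0.81 and 0.92 in NC and at 1.09, 0.94 and 1.0 in siEIF1 (log2 fold change 0.25, SE 0.082, adjusted p = 0.0461). The call of KPNA5 was lost with DESeq2 (adjusted p = 0.122) and with any 1 library left out (0.0515 to 0.168).

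KPNA2 supplied less of the importin alpha pool in siEIF1. Its share of the summed FPKM of the family was 15.0%, 15.1% and 14.7% in NC and 10.8%, 10.1% and 10.1% in siEIF1. The groups were separate, with a difference of -4.57 percentage points (exact permutation test, two-sided, p = 0.1, the lowest possible). The mean shares of KPNA1, KPNA3 and KPNA6 were 0.54, 0.80 and 1.62 points above those of NC (exact permutation p = 0.4, 0.2 and 0.2), and those of KPNA4 and KPNA5 were 0.95 and 0.59 points above (p = 0.1 each). The shares of a family are linked, so a lower KPNA2 share raises the others together even where their level is unchanged. For KPNA4 the mean FPKM was 6.77 in NC and 6.72 in siEIF1. The family sum was 35.2 ± 0.88 (SD, n = 3) in NC and 33.4 ± 2.02 (SD, n = 3) in siEIF1 (exact permutation p = 0.3).

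**Figure D4:**
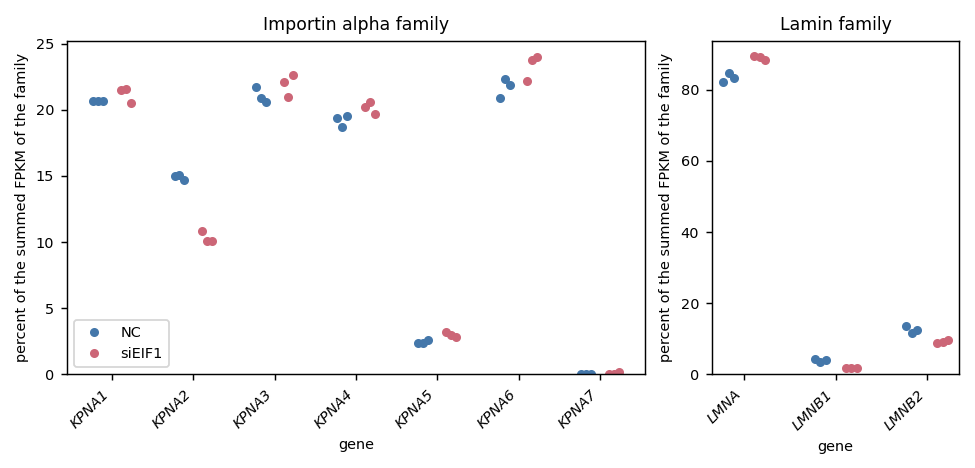
Share of each gene in the summed FPKM of its family (percent, vertical axis) in the 3 NC (blue) and 3 siEIF1 (red) libraries, for the importin alpha family and the lamins. In mean, the share of KPNA2 goes from 14.9% to 10.3%, that of LMNB1 from 4.06% to 1.81% and that of LMNA from 83.3% to 89.0%.

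Of the 13 importin beta-type receptors, 2 were lower and none was higher, and the median was -0.034. The 2 lower receptors are near the share of all tested genes called lower, 10.4%. KPNB1 (ENSG00000108424.11; chromosome 17, 47649476 to 47685505, forward strand), importin beta itself and the partner of the importin alpha adaptors, was at 23.2, 21.1 and 21.7 in NC and at 15.4, 13.9 and 17.2 in siEIF1 (log2 fold change -0.49, SE 0.063, adjusted p = 1.31e-04). No siEIF1 library reached the lowest NC library. IPO11, a receptor that imports ubiquitin-conjugating enzymes, was at 2.08, 2.39 and 2.13 in NC and at 1.79, 1.63 and 1.76 in siEIF1 (log2 fold change -0.33, SE 0.077, adjusted p = 0.00832). The remaining 11 included IPO5 and IPO7, importers of ribosomal proteins and histones, at log2 fold changes of 0.0081 and 0.060. These 2 were the most abundant receptors by FPKM, although KPNB1 had a higher mean count than IPO7. The 3 transportins TNPO1, TNPO2 and TNPO3, which import RNA-binding and splicing proteins, were at -0.034, -0.0066 and 0.12 and were not called. IPO8 lay closest to the threshold of those not called (log2 fold change -0.17, adjusted p = 0.0560).

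Exportins were lower in 3 of 6 cases, XPOT, XPO4 and XPO7, with a median of -0.12. XPOT, the exporter of tRNA, was the most abundant of them at 44.9, 38.6 and 40.9 in NC and 32.3, 29.3 and 34.4 in siEIF1 (log2 fold change -0.35, SE 0.062, adjusted p = 0.00129). The groups did not overlap. XPO4 and XPO7 had small falls (log2 fold changes -0.21 and -0.18, adjusted p = 0.0217 for both). The call of XPO7 was lost when either siEIF1 replicate 1 or 2 or any NC library was left out (0.0536 to 0.0874), and that of XPO4 when NC replicate 2 or 3 or siEIF1 replicate 2 or 3 was left out (0.0502 to 0.0849). XPO1, also named CRM1, the main exporter of proteins with a leucine-rich export signal, was at 5.73, 5.48 and 5.54 in NC and at 5.36, 5.02 and 5.53 in siEIF1. These values overlapped, and the 95% interval of its log2 fold change ran from -0.15 to 0.045.

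In the Ran cycle, 2 of 5 tested members were lower and none was higher. RANBP1, which works with RANGAP1 to release Ran from transport receptors in the cytoplasm, was at 20.0, 18.4 and 18.9 in NC and at 14.9, 14.5 and 15.0 in siEIF1 (log2 fold change -0.35, SE 0.048, adjusted p = 2.30e-04). The 3 siEIF1 libraries lay within a narrow band below all NC libraries. RANGAP1 was at 24.9, 25.1 and 26.7 in NC and at 21.5, 21.1 and 23.1 in siEIF1 (log2 fold change -0.21, SE 0.046, adjusted p = 0.00658), and its call was lost without NC replicate 3 (adjusted p = 0.0501). RAN, the GTPase itself and the most abundant member by FPKM, was at 92.3, 85.5 and 88.0 in NC and at 84.8, 80.6 and 81.5 in siEIF1. Every siEIF1 library was under every NC library, but the fall was small and was not called (log2 fold change -0.085, 95% interval -0.19 to 0.023, adjusted p = 0.268). RCC1, the exchange factor of Ran on chromatin, was not called (log2 fold change -0.10, adjusted p = 0.173), nor was RANBP3, a cofactor of XPO1. RANBP9 and RANBP10, scaffold proteins named for Ran binding, were not called, with log2 fold changes of -0.065 and 0.16.

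Of the 34 tested members that were not called, 32 had a 95% interval of the fold change inside a 1.25-fold change in either direction. The exceptions were NUP62CL and RANBP17 (95% interval of the log2 fold change -0.33 to 0.13), both of low abundance. At an unadjusted p under 0.05, 5 of the 34 stood out, with TNPO3 and RANBP10 higher and NUP62, NUP62CL and IPO8 lower, and none of these passed the adjustment.

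Genes of the same structures with names outside the rule were read from a separate list of 35, and all were tested. Of these, 5 were lower and 2 were higher, with a median log2 fold change of -0.050. These 7 of 35 are close to the 20.6% called among all tested genes, so the list as a whole did not stand out. NDC1, a membrane-spanning pore protein, was at 5.44, 5.17 and 4.97 in NC and at 4.34, 3.81 and 3.99 in siEIF1 (log2 fold change -0.34, SE 0.068, adjusted p = 0.00337). GLE1, an mRNA export factor, and SEC13, a Y complex subunit shared with secretory vesicle coats, were higher (log2 fold changes 0.27 and 0.16, adjusted p = 0.00338 and 0.0483). The call of GLE1 was lost with limma on log2(FPKM + 1) (adjusted p = 0.0527), and that of SEC13 with DESeq2 (adjusted p = 0.0675) and without NC replicate 2 or 3 or siEIF1 replicate 1 or 2 (0.136 to 0.196). Of 10 other transport factors, NXT1, a partner of the mRNA exporter NXF1, was lower (log2 fold change -0.34, adjusted p = 0.0145; 0.0546 to 0.0695 without NC replicate 1 or 3), while NXF1 and DDX19B were not called (adjusted p = 0.150 and 0.137). CSE1L, the receptor that returns importin alpha to the cytoplasm, was also not called, at a log2 fold change of 0.024 with a 95% interval from -0.093 to 0.14. Of 15 other envelope genes, NEMP1, an inner nuclear membrane protein, was lowest, at 2.94, 2.88 and 2.87 in NC and 1.82, 1.43 and 1.71 in siEIF1 (log2 fold change -0.79, SE 0.084, adjusted p = 2.80e-05). SUN2, which links the lamina to the cytoskeleton through nesprins, and ZMPSTE24, the protease that matures prelamin A, were lower too, with log2 fold changes of -0.26 and -0.25. The call of ZMPSTE24 was lost without NC replicate 1 or siEIF1 replicate 2 (adjusted p = 0.0695 and 0.0783).

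Counts can mix genes that share bases. In GENCODE release 44, 30 members share exon bases with another gene, 24 of them on the opposite strand. Of NUP88, 31.7% of the exon bases lie opposite RABEP1, which had a log2 fold change of 0.036 (adjusted p = 0.709). Of IPO4, 68.7% lie within another protein-coding gene model on the same strand, so its counts are uncertain. RANBP2 has 7 near copies of the RGPD family in the table, which held 7.94% as many counts as RANBP2. Their part in these values was not tested.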

How the data were processed

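RNA-seq was analysed for 3 NC and 3 siEIF1 libraries, grouped by sample title. Per the methods, RNA was poly(A)-captured, the libraries were strand-specific, the replicates were independent and all 6 were sequenced in 1 run. The authors trimmed reads with FASTX-Toolkit 0.0.13, aligned them to GRCh38 with HISAT2, and deposited raw counts of uniquely mapped reads per gene. The authors also deposited FPKM values, rounded to 2 decimals. The counting program, its strand setting and the annotation release are not given in the sources used here. All columns matched a library.

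The counts were fitted over 16749 genes with edgeR 4.0.16 in R 4.3.3 (low counts dropped by filterByExpr, TMM scaling, the quasi-likelihood test and Benjamini-Hochberg adjusted p-values). DESeq2 1.42.0, the authors' tool, and limma 3.58.1 on log2(FPKM + 1) or log2(FPKM + 0.1) were alternatives, with RLE size factors, 2 other filters, the replicate number as a block and each library left out in turn. Scripts were tested on simulated data. Depth was 26499929 to 31431479 counts per library; precision is given as standard errors. Libraries of a group differed by more than sampling noise (chi-square per degree of freedom 3.01 to 14.1), so none was a copy of another. This comparison cannot tell separate cultures from separate preparations of the same RNA. Gene positions are from GENCODE release 44, with all 64 members matched, and start windows from RefSeq (GRCh38.p14).

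The members and gene lists were chosen with earlier results of these data known. Named are EIF1, up to 5 called members per role by p, RAN, XPO1, KPNB1, KPNA2, the 6 lamina genes, and up to 3 genes by p from each list outside the rule. Other genes are named where few fell in a count, or were chosen after their values were seen. The S and G2/M phase lists are those of the Seurat package. The summed level of the immune marker list is not reported here.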

Additional observations from a re-analysis of the deposited data

How the results depend on the processing

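Under every alternative more members were lower than higher. Of the refits of single genes in the naming scheme above, EIF1 aside, 446 kept their direction and side of the threshold, 58 lost the call and 0 reversed. These refits leave out the lower members NUP85, NUP155 and NUP205, each of which lost its call under several alternatives. The number of lower members was 25 with RLE size factors, with no filter on low counts and with at least 10 counts in every library, 24 with DESeq2, and 20 and 21 with limma on log2(FPKM + 1) and log2(FPKM + 0.1). It dropped to 10 with limma on log2(FPKM + 1) without a filter, where all tested genes called lower also went from 1744 to 815. LMNB2, IPO11, XPOT, RANGAP1 and NUP188 were among the members that lost the call in that fit (adjusted p = 0.0568 to 0.106). Leaving out 1 library at a time gave 18 to 26 lower members and 1 to 2 higher. Only 1 member (LMNA) was higher with no filter, with DESeq2 and with each of the 3 limma fits. Members past the 2-fold limits numbered 0 to 1 with a library left out, the 1 being LMNB1 without NC replicate 2. Genes outside the rule that were called, 7 in the main analysis, numbered 4 with limma on log2(FPKM + 1) and 3 without its filter. With the replicate block, 27 members were lower (the 25 and 2 more), 2 were higher, and 10 genes outside the rule were called. Deviations of same-numbered libraries correlated at 0.149, 0.0946 and 0.128, each the highest for its library, a hint from the data and not the design. The difference in the LMNB1 share of the lamins was -1.09 points on counts. The filter on low counts kept NUP210L, KPNA7 and RANBP3L from being tested in the main analysis, and NUP62CL and RANBP17 had wide intervals. The cause of the changed counts was not tested.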
